A study of Mus musculus with 12 samples.

Results

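Expression of 10 detoxification genes was described in adventitial fibroblasts of the mouse aorta, the connective tissue cells of the outer vessel wall. They comprised 7 glutathione transferases (*Gstm1*, *Gstm2*, *Gsta4*, *Gsto1*, *Gstt1*, *Gstp1* and *Mgst1*) and 3 flavin monooxygenases (*Fmo1*, *Fmo2* and *Fmo5*), of 54352 gene symbols in the count table. The genes were listed by name, and the list was chosen by the measured change of *Gstm1*, *Gsto1* and *Fmo2* with TGFβ in these same libraries. Values of the 10 genes in TGFβ against control are therefore given as a description and carry no test. Differences between the sites did not choose the list and were tested, although those comparisons reuse the same control and TGFβ libraries.

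Glutathione transferases join the peptide glutathione to reactive molecules such as lipid aldehydes and quinones, and the conjugates are then pumped out of the cell by ABC transporters. The cytosolic enzymes fall into classes (mu, alpha, omega, theta and pi), while MGST1 sits in membranes. Flavin monooxygenases, anchored in the endoplasmic reticulum, use FAD and NADPH to oxidise nitrogen or sulphur atoms of drugs and metabolites. Many genes of glutathione supply and conjugation are known targets of the transcription factor NRF2.

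Primary fibroblasts were grown out of ascending or descending aortic adventitia of wild-type C57Bl/6 mice labelled 14 weeks of age and passaged once. All cultures carried no engineered allele and were labelled as 1 batch. Cultures received solute control or mouse TGFβ at 10 ng/mL for 48 h, which gave 4 groups (ascending control, ascending TGFβ, descending control and descending TGFβ) of 3 libraries each. It is not stated whether libraries of a group came from separate animals, so p-values measure the spread between these 12 libraries, which may be technical.

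Between 16250126 and 23892943 reads were counted on genes per library. Levels are given as normalized CPM, a count set against the library total after edgeR's TMM scaling. The floor of a library, set at 3 counts, lay between 0.117 and 0.207 normalized CPM and covers counting error only, since reads were not tagged by molecule before PCR. Changes are log2 fold changes with their standard error (SE). Descending control replicate 3 stood apart, with 13031 genes detected against 19337 to 20931 elsewhere and 11.02% mitochondrial counts against 0.703% to 1.03%. It was kept in the fits, and fitted values and counts of calls that use it are given with and without it. The 5 fibroblast markers summed to 10350 to 10756 normalized CPM in ascending control and 17433 to 17463 in ascending TGFβ. They summed to 11039 to 11759 in descending control and 20959 to 23095 in descending TGFβ. The 4 endothelial markers summed to 23.8 to 27.1 in control and 3.86 to 9.59 with TGFβ, almost all of it *Tek*, with *Pecam1* at 0.300 or less and *Cdh5* at 0.260 or less in every library. The 4 adipocyte markers summed to 22.4 to 30.6 in descending control, 9.74 to 18.5 in descending TGFβ and at most 4.99 in ascending libraries. The 4 macrophage markers summed to 12.2 to 49.2 in ascending control and to 5.51 to 10.1 in the other groups. The 5 smooth muscle markers summed to 97.8 to 107 in ascending control, 131 to 141 in ascending TGFβ, 152 to 162 in descending control and 256 to 277 in descending TGFβ. The 4 mesothelial markers summed to 33.5 to 44.2 in ascending control, 19.6 to 26.5 in ascending TGFβ and at most 13.9 in descending libraries. The 4 Schwann cell markers summed to 10.8 to 25.9 over all libraries. In bulk libraries, a change in RNA per cell and a change in the share of cells that express a gene cannot be told apart.

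Promoter sequences of the members that chose the list are shown first, with those of *Gstp1* and *Mgst1*, the members whose windows held an AP-1 site or an antioxidant response element core. Each window runs from 250 bases before to 50 bases after a RefSeq start site (GRCm38.p6), read 5′ to 3′ on the strand of the gene. Where a gene had a pair of windows, the one whose start site lies nearest to the GENCODE gene start was printed. Capitals mark matches, on either strand, to TGACNNNGC (the antioxidant response element core bound by NRF2), TGANTCA (the AP-1 site), GCGTG (the xenobiotic response element core bound by the aryl hydrocarbon receptor) and CAGAC (a SMAD box).
*Gstm1* promoter, chr3:108017924-108018223, minus strand: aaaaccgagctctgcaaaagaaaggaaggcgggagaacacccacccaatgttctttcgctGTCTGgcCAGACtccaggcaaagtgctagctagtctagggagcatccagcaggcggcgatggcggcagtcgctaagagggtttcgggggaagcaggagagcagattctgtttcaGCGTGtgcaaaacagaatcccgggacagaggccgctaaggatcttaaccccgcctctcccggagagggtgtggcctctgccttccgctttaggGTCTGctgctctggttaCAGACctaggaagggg
*Gsto1* promoter, chr19:47854723-47855022, plus strand: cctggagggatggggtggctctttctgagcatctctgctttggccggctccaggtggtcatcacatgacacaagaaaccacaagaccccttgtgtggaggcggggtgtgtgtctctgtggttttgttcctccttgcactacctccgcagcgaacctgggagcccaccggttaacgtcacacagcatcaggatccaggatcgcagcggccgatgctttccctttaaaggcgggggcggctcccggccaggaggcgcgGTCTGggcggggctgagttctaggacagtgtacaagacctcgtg
*Fmo2* promoter, chr1:162898709-162899008, minus strand: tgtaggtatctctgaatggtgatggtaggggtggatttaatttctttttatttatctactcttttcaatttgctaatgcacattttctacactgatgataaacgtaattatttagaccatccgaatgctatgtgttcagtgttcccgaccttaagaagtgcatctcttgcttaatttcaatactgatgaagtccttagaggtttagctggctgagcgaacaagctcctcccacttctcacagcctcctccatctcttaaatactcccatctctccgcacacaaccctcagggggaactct
*Gstp1* promoter, chr19:4037863-4038162, minus strand: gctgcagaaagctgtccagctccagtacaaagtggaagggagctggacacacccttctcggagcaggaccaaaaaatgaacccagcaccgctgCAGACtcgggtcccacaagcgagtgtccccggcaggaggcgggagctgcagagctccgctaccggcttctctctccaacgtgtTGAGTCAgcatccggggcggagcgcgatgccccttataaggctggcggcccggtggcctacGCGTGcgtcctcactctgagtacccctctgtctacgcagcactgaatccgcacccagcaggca
*Mgst1* promoter, chr6:138140277-138140576, plus strand: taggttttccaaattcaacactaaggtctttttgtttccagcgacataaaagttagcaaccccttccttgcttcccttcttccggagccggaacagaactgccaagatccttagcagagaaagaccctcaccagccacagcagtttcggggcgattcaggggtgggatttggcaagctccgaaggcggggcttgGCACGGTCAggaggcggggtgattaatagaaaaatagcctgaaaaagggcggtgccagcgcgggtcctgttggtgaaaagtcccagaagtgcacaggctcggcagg

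The set of RefSeq windows used here held 11 for 8 of the 10 members, with none for *Fmo1* and *Gsta4*. CAGAC occurred in 8 of the 11 windows (72.7%), those of 7 genes, and in 49.6% of 32851 mouse promoter windows of the same length. The *Gstm1* window held 4 CAGAC matches, the *Gsto1* window 1, and the printed *Fmo2* window none of the capitalised motifs, while its other window (chr1:162898444-162898743) held 1 CAGAC, at base 4 after the start site. GCGTG was found in 3 windows (27.3%), of *Gstm1* and *Gstp1*, against 32.4% of all windows. The *Gstm1* windows overlap, so the same GCGTG site and some of the same CAGAC matches are counted in both. The antioxidant response element core was found once, in *Mgst1* at -56 from the start site, and in 12.4% of all windows. The AP-1 site was found once, in *Gstp1* at -74, and in 7.81% of all windows. TATAAA occurred in 2 of the 11 windows (18.2%), of *Gstm1* and *Fmo5*, and in 13.6% of all. These matches describe letters in short windows and are not evidence of binding.

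*Gstm1* and *Gstm2* encode mu class transferases and lie in 1 cluster, *Gstm1* at chr3:108012255-108017973 and *Gstm2* at chr3:107981702-107986453 of GRCm38, both on the minus strand. *Gstm1* was at 141, 146 and 151 normalized CPM in the ascending control libraries and at 33.6, 37.2 and 38.7 in ascending TGFβ. In descending fibroblasts it was at 146, 150.0 and 132 in control and at 39.2, 33.8 and 31.9 with TGFβ. All 6 TGFβ libraries thus lay far below all 6 control libraries, and the sites overlapped within each treatment. The log2 fold change of *Gstm1* with TGFβ was -2.00 in ascending (SE 0.05) and -2.04 in descending fibroblasts (SE 0.14), a level about 4.01-fold and 4.10-fold lower. The latter value was -2.08 (SE 0.07) without descending control replicate 3. Of its 50-base exon sequences, 18.9% also occur in another gene, mostly *Gstm2-ps1*, and how the authors counted reads matching several genes is not given in the sources used here.

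*Gstm2* had smaller differences than its neighbour. It lay between 176 and 184 normalized CPM in ascending control and between 132 and 136 in ascending TGFβ, and between 156 and 178 in descending control and 118 and 136 in descending TGFβ. Its groups did not overlap between control and TGFβ, with log2 fold changes of -0.44 in ascending (SE 0.04) and -0.40 in descending fibroblasts (SE 0.12), or -0.44 without descending control replicate 3. *Gstm2* shares 5.66% of its exon sequences, mostly with *Gm12499*.

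*Gsto1*, at chr19:47854970-47864790 on the plus strand, encodes an omega class enzyme that reduces rather than conjugates many of its substrates, and it overlaps *Cfap43*. It was the only member with higher levels under TGFβ. Ascending control libraries were at 102, 95.6 and 102 normalized CPM and ascending TGFβ libraries at 281, 295 and 301. Descending control libraries were at 123, 112 and 108 and descending TGFβ libraries at 324, 290.5 and 315. Each TGFβ library exceeded each control library, with log2 fold changes of 1.54 (SE 0.04) in ascending and 1.43 (SE 0.12) in descending fibroblasts, or 1.40 (SE 0.06) without descending control replicate 3. The neighbouring omega class gene *Gsto2*, named after its value was seen, went the other way in ascending fibroblasts, at -0.97 on the log2 scale (SE 0.30, adjusted p = 0.011 in edgeR's quasi-likelihood test), a call lost without ascending TGFβ replicate 2 (adjusted p = 0.0586).

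*Gsta4* (chr9:78182774-78209349, plus strand) encodes an alpha class transferase with a known preference for 4-hydroxynonenal, an aldehyde of lipid peroxidation. Its ascending control libraries were at 5.56, 4.79 and 5.40 normalized CPM and its ascending TGFβ libraries at 0.887, 2.60 and 2.43, the lowest of them from 17 counts. Its descending control libraries were at 14.6, 13.5 and 35.4 and its descending TGFβ libraries at 10.0, 10.6 and 9.31. The value of 35.4 came from descending control replicate 3, and the order of the groups was descending control, descending TGFβ, ascending control and ascending TGFβ with or without it. The log2 fold change with TGFβ was -1.40 in ascending (SE 0.26) and -1.09 in descending fibroblasts (SE 0.41), and -0.49 (SE 0.11) in descending fibroblasts without that library. The summed adipocyte markers stood in the same order of groups, and their part in the level of *Gsta4* was not tested.

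*Gstt1* (chr10:75783813-75798584, minus strand), a theta class gene, lay between 17.2 and 18.4 normalized CPM in ascending control and between 2.63 and 3.65 in ascending TGFβ. In descending fibroblasts it lay between 8.0 and 13.2 in control, the lowest being replicate 3, and between 2.69 and 3.32 with TGFβ. No TGFβ library reached a control library, and the log2 fold change of -2.48 in ascending fibroblasts (SE 0.12) was the largest decrease among the 7 transferases in that site. The corresponding value of *Gstt1* in descending fibroblasts was -1.92 (SE 0.26), or -2.10 (SE 0.15) without descending control replicate 3.

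*Gstp1* (chr19:4035407-4037985, minus strand), the pi class gene, shares 33.7% of its exon sequences with other genes, mostly *Gstp2*, so reads could be split between them. Ascending control libraries were at 109, 112 and 105 normalized CPM and ascending TGFβ libraries at 80.9, 86.1 and 82.5, a log2 fold change of -0.39 (SE 0.04). Descending control libraries were at 126, 118 and 53.2, and descending TGFβ libraries at 98.4, 98.4 and 92.3. Replicate 3 thus lay below the TGFβ libraries and the remaining descending controls above them. The log2 fold change in descending fibroblasts was -0.044 (SE 0.32) with it and -0.34 (SE 0.05) without it. The sign was not settled by these libraries, at 0.17 without descending control replicate 1, 0.10 without replicate 2 and 0.048 with the replicate number as a block.

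*Mgst1* (chr6:138140316-138156755, plus strand), the microsomal transferase and peroxidase, was at 57.8, 64.5 and 56.0 normalized CPM in ascending control and at 20.05, 20.6 and 19.6 in ascending TGFβ. Descending control libraries were at 27.7, 27.2 and 10.9 and descending TGFβ libraries at 9.69, 12.0 and 10.6. For *Mgst1*, replicate 3 lay within the TGFβ range while the other descending controls lay above it. *Mgst1* had a log2 fold change of -1.57 (SE 0.06) in ascending and of -1.03 (SE 0.37) in descending fibroblasts, and -1.35 (SE 0.10) in descending fibroblasts without replicate 3.

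The flavin monooxygenase genes *Fmo1* (chr1:162829561-162866610) and *Fmo2* (chr1:162874317-162898726) are neighbours on the minus strand, while *Fmo5* lies at chr3:97628804-97655282 on the plus strand. FMO2 is best known as the form of lung, FMO1 as that of mouse liver and kidney, and FMO5 as an enzyme that can insert oxygen beside a carbonyl group. *Fmo2* was at 16.4, 20.5 and 17.0 normalized CPM in ascending control and at 1.25, 0.898 and 0.633 in ascending TGFβ, from 13 to 24 counts. In descending fibroblasts it was at 52.4, 62.6 and 51.6 in control and at 0.816, 0.650 and 0.614 with TGFβ, from 12 to 16 counts. The descending controls were the highest libraries, the ascending controls came next, and the 6 TGFβ libraries overlapped at low levels.

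The log2 fold change of *Fmo2* with TGFβ was -4.28 in ascending (SE 0.18) and -6.32 in descending fibroblasts (SE 0.20), or -6.36 (SE 0.14) without descending control replicate 3. Next to it stood *Fmo1*, with fitted values of -4.04 in ascending (SE 0.43) and -4.77 in descending fibroblasts (SE 0.64; -4.37 without that library), which rest on TGFβ libraries at or close to the floor. In ascending fibroblasts the values of *Fmo2* and *Fmo1* lay within their errors of each other. Summed *Fmo2* counts of the 3 control libraries, scaled by library, exceeded those of the TGFβ libraries 19.5-fold in ascending fibroblasts (95% exact interval 14.9 to 25.9). In descending fibroblasts the ratio was 80.8-fold (59.4 to 113), or 82.6-fold without replicate 3 (60.7 to 115). These intervals cover counting error only, leave out the spread between libraries and are no test.

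*Fmo1* was low throughout, at 1.78, 2.65 and 2.34 normalized CPM in ascending control and 4.59, 6.16 and 10.5 in descending control. With TGFβ it had 4, 1 and 3 counts in ascending and 2, 8 and 5 counts in descending libraries. Levels under TGFβ were thus at or close to the floor. Summed control counts of *Fmo1* exceeded summed TGFβ counts 17.0-fold in ascending (95% exact interval 8.39 to 40.1) and 25.8-fold in descending fibroblasts (15.4 to 46.4), or 21.0-fold without replicate 3 (12.5 to 38.1). Of its exon sequences, 7.02% occur in another gene, mostly *Gm48161*.

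*Fmo5* lay between 8.08 and 10.1 normalized CPM in ascending control and between 8.84 and 14.4 in descending control, the highest value being replicate 3. It lay between 3.03 and 3.29 in ascending TGFβ and between 2.32 and 3.21 in descending TGFβ, below every control library. The log2 fold changes of *Fmo5* were -1.53 in ascending (SE 0.15) and -1.93 in descending fibroblasts (SE 0.29), or -1.67 (SE 0.17) without replicate 3.

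**Figure D1:**
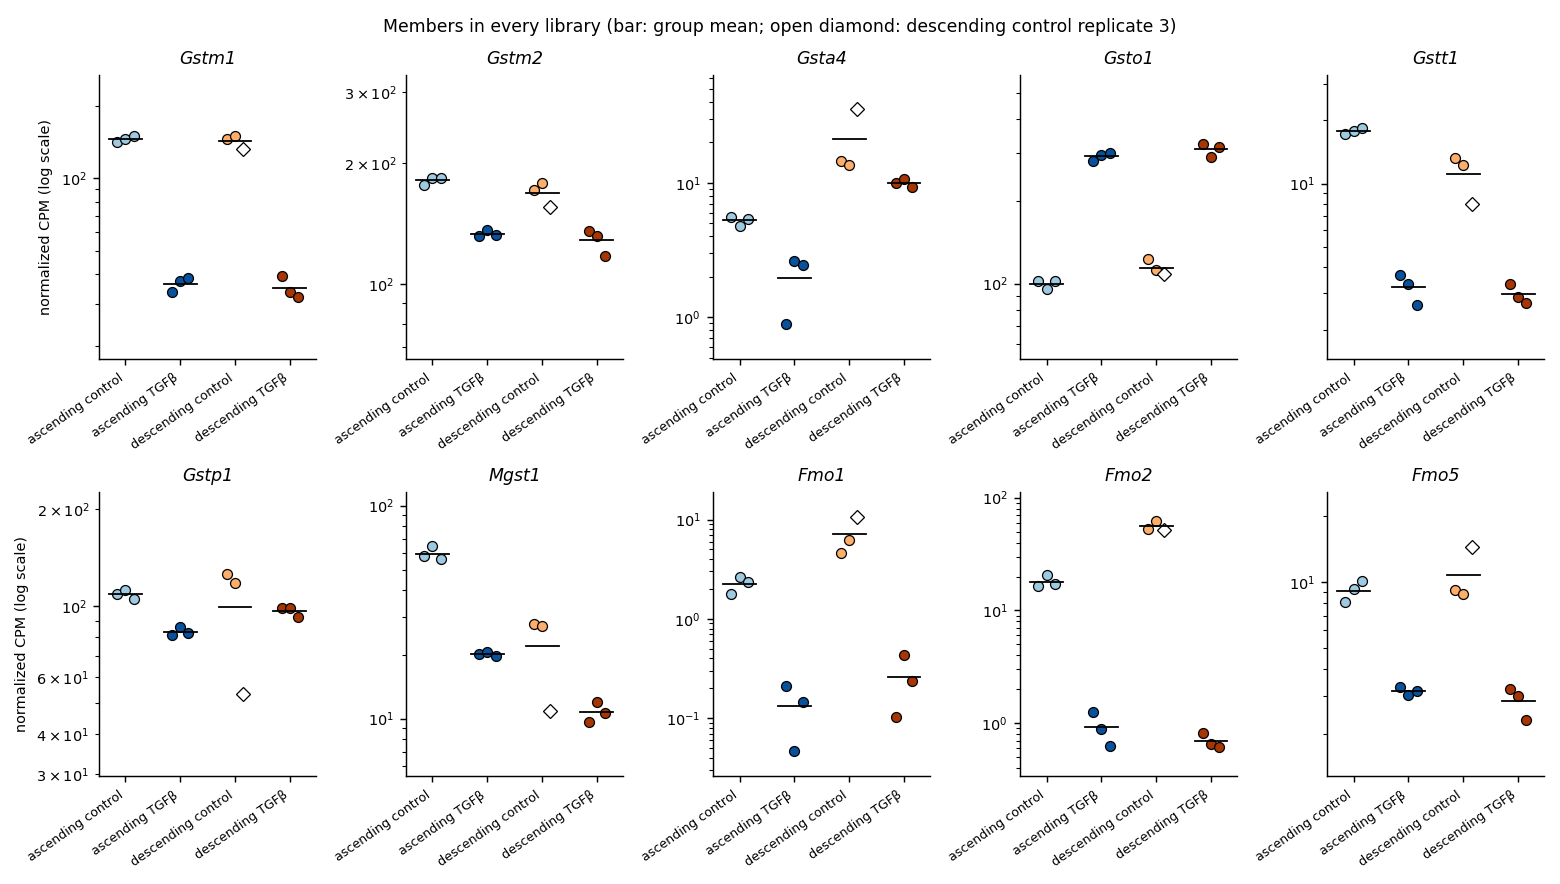
Normalized CPM (log scale) of each of the 10 genes in the 12 libraries, 3 points per group, with a bar at the group mean and an open diamond for descending control replicate 3. *Gsto1* is higher in every TGFβ library, while *Fmo2* lies at 16.4 to 62.6 in control and at 1.25 or less with TGFβ.

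Of the 10 genes, 9 had a negative and 1 a positive fitted change with TGFβ in each site, although the sign of *Gstp1* in descending fibroblasts turned with the libraries left out. The median over them was -1.55 on the log2 scale in ascending and -1.50 in descending fibroblasts (-1.51 without descending control replicate 3), against -0.0044 and 0.021 (-0.012) over all genes tested. As background, 28.2% of 13917 genes passed as higher and 27.6% as lower with TGFβ in ascending fibroblasts. In descending fibroblasts 3.59% passed as higher and 4.48% as lower, and 26.6% and 26.3% without replicate 3. Because this contrast chose the genes, nothing is read from their medians or counts against those of all genes.

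**Figure D2:**
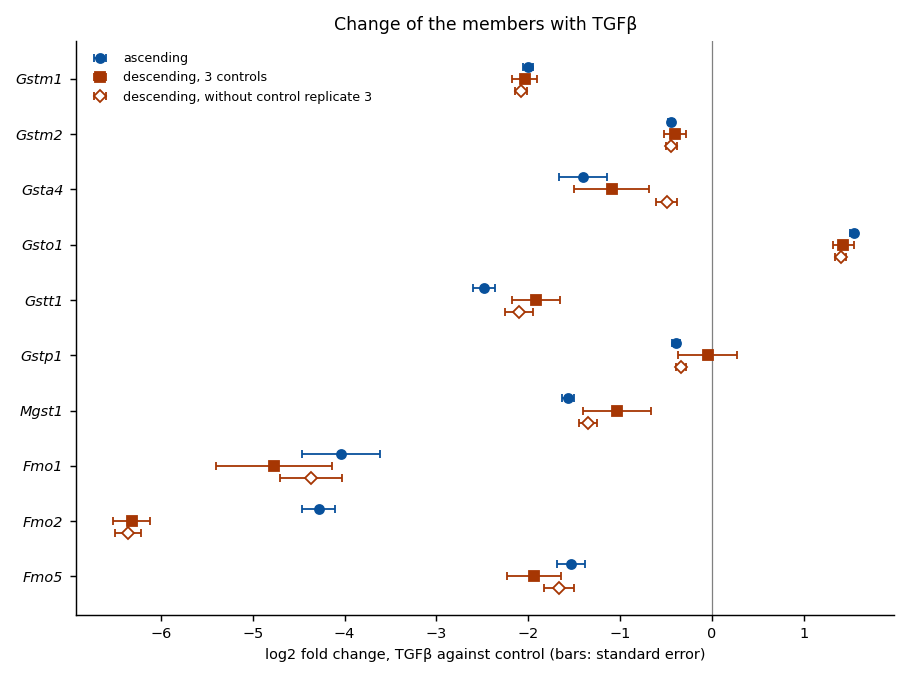
Log2 fold change, TGFβ against control, of the 10 genes with SEs, in ascending fibroblasts (circles), in descending fibroblasts (squares) and in descending fibroblasts without control replicate 3 (open diamonds). *Gsto1* lies at 1.40 to 1.54 and all other points lie below 0, with the SE of *Gstp1* crossing 0 in the full descending fit.

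Levels per kilobase of exon set genes on a common scale only roughly. The length was that of all annotated exons, and 18.9% of *Gstm1* and 33.7% of *Gstp1* exon sequences also occur in other genes. *Gstm2* and *Gstm1* stood highest in ascending control at 108 ± 2.54 and 99.2 ± 3.13 normalized CPM per kb (SD, n = 3 each). They were followed by *Gstp1* at 70.3 ± 2.08 and *Gsto1* at 49.4 ± 1.87. With TGFβ the order in ascending fibroblasts was *Gsto1* at 145 ± 5.12, *Gstm2* at 79.5 ± 1.44, *Gstp1* at 53.7 ± 1.70 and *Gstm1* at 24.8 ± 1.76 (SD, n = 3 each). The same 4 genes headed the order in descending fibroblasts, with *Gsto1* at 153 ± 8.52 and *Gstm1* at 23.7 ± 2.55 under TGFβ. In descending control, *Gstm2* at 100.3 ± 6.88 and *Gstm1* at 96.9 ± 6.38 differed by less than their spread, and stood at 104 and 100.5 without replicate 3. *Fmo1* was lowest in each group, from 0.0213 ± 0.0129 in ascending TGFβ to 1.13 ± 0.490 normalized CPM per kb in descending control (0.852 without replicate 3).

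The comparison of ascending with descending fibroblasts without TGFβ asked whether the genes already differed by site. In the full fit 1 of the 10 genes passed, *Fmo2*, which was lower in ascending control at a log2 fold change of -1.62 (SE 0.15, adjusted p = 0.00784 in edgeR's quasi-likelihood test). Over all 14090 genes, 1.19% passed as higher and 1.47% as lower in ascending control. All 3 ascending controls of *Fmo2* lay below all 3 descending controls. The summed adipocyte and smooth muscle markers were lower in ascending control too, without overlap, and their part in this difference was not tested. The call was lost, at adjusted p of 0.0504 to 0.0967 in the same test, when descending control replicate 2 or any 1 of the ascending controls was left out, while the log2 fold change stayed between -1.72 and -1.53.

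Without descending control replicate 3, 7 of the 10 genes passed, 2 higher and 5 lower in ascending fibroblasts, where 16.4% of all genes tested passed as higher and 15.2% as lower. *Mgst1* was higher in ascending control by 1.12 on the log2 scale (SE 0.07, adjusted p = 2.96e-08 in edgeR's test) and *Gstt1* by 0.50 (SE 0.09). *Gsta4* was lower, with -1.40 (SE 0.13, adjusted p = 1.37e-06 in the same test), as were *Fmo1* with -1.24 (SE 0.22) and *Fmo2* with -1.66 (SE 0.09). *Gsto1* and *Gstp1* passed with small differences of -0.22 and -0.15, the latter with the opposite sign to the full fit. *Gstm1*, *Gstm2* and *Fmo5* did not pass, at -0.0071, 0.063 and 0.033. With all libraries, *Gsta4*, *Fmo1* and *Mgst1* had differences of -2.00, -1.65 and 1.44 that did not pass, with adjusted p of 0.0869, 0.128 and 0.139 in edgeR's test. *Gstt1* had 0.68 (adjusted p = 0.25 in the same test) and *Gstp1* 0.14 (adjusted p = 0.834). *Gsto1*, *Gstm1*, *Gstm2* and *Fmo5* had -0.19, 0.038, 0.11 and -0.24 with all libraries and did not pass.

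Under TGFβ, 9 of the 10 genes were tested between the sites and *Fmo1* had too few counts for the filter. *Gsta4* was lower in ascending fibroblasts, at -2.31 on the log2 scale (SE 0.20, adjusted p = 1.27e-10 in edgeR's quasi-likelihood test). *Mgst1* was higher in ascending fibroblasts by 0.90 (SE 0.09, adjusted p = 4.79e-09 in the same test), and *Gstp1* lower, with -0.21 (SE 0.05, adjusted p = 0.000475). These were 1 higher and 2 lower calls, which held with each library left out in turn, where 18.1% of 13678 genes passed as higher and 18.2% as lower. With the 12 libraries in one fit, *Gsta4* passed (adjusted p = 0.00672 in edgeR's test), while *Mgst1* and *Gstp1* did not, at adjusted p of 0.0924 and 0.931. No descending control library enters this comparison. *Fmo2*, with 0.41 (SE 0.37, adjusted p = 0.424 in the same test), did not pass. Nor did *Gstm1*, *Gstm2*, *Gsto1*, *Gstt1* and *Fmo5*, whose differences lay between -0.08 and 0.16. Without descending TGFβ replicate 2, *Gsto1* passed as lower in ascending fibroblasts, at -0.13 (adjusted p = 0.0102 in edgeR's test).

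*Gsta4* and *Mgst1* kept their direction between the sites in control and under TGFβ. For *Gsta4*, every ascending library lay below every descending library of the same treatment, and the ascending controls also lay below the descending TGFβ libraries. For *Mgst1*, every ascending library lay above every descending library of the same treatment. The adipocyte and smooth muscle markers were higher in the descending groups too, as *Gsta4* was, and the mesothelial and macrophage markers in the ascending groups, as *Mgst1* was, without overlap within each treatment. Their part in these differences was not tested.

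**Figure D3:**
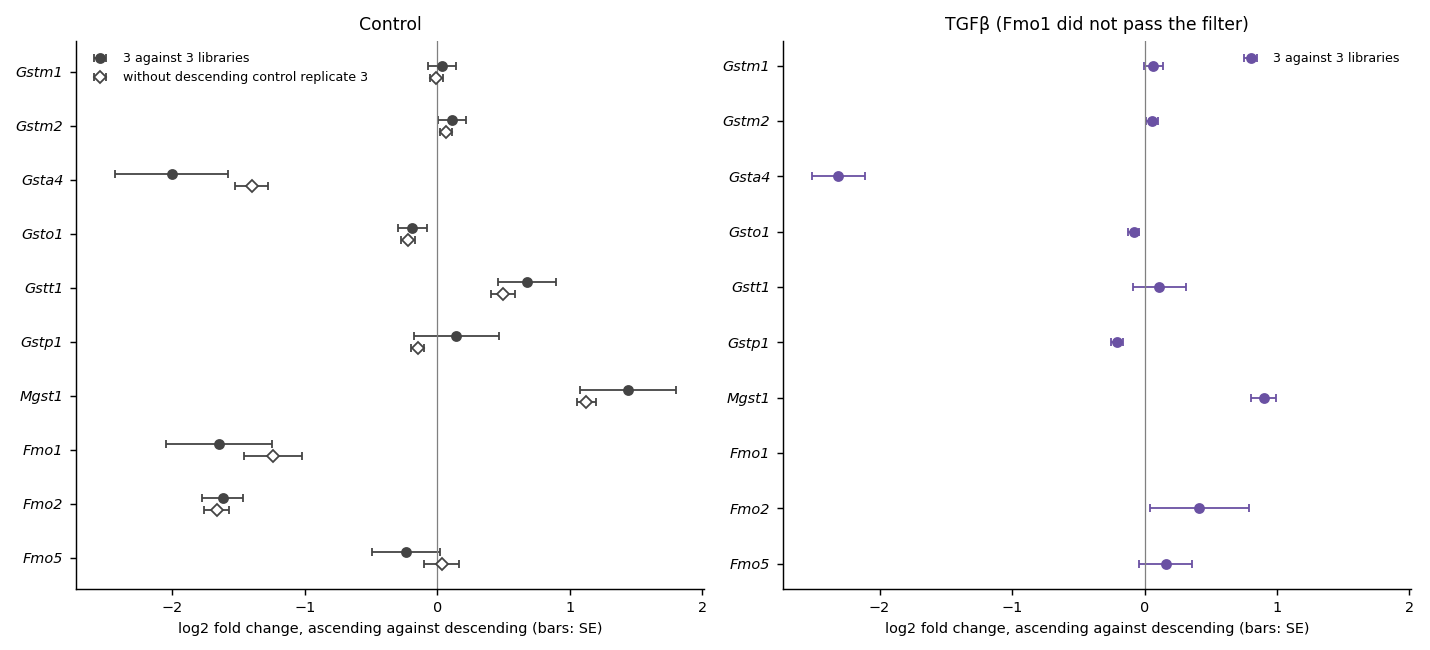
Log2 fold change, ascending against descending, of the 10 genes with SEs, in control (left; open diamonds without descending control replicate 3) and, for the 9 genes tested, under TGFβ (right; *Fmo1* has no point). *Gsta4* lies at or below -1.40 and *Mgst1* at or above 0.90 in each fit, while *Fmo2* lies at -1.66 to -1.62 in control and at 0.41 under TGFβ.

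The interaction of site and TGFβ compares the change with TGFβ between the sites, and is positive where it was more positive in ascending than in descending fibroblasts. *Fmo2* had a value of 2.04 (SE 0.31), *Gsto1* of 0.11 (SE 0.11) and *Gstm1* of 0.029 (SE 0.14), given without a test because the change of these genes with TGFβ chose the list. These values were 2.08, 0.15 and 0.081 without descending control replicate 3. Leaving out any 1 library kept the value of *Fmo2* between 1.76 and 2.25. Among the other 7 genes none passed in edgeR's test, with 0 at an unadjusted p under 0.05, 0 by DESeq2's Wald test and 1 by limma's voom with sample weights. Over all 14637 genes 0.321% passed as positive and 0.485% as negative. Values of *Gstm2*, *Gsta4*, *Gstt1*, *Gstp1*, *Mgst1* and *Fmo5* lay between -0.56 for *Gstt1* and 0.39 for *Fmo5*. *Fmo1*, with 0.73 (SE 0.86), passed the filter only through its control libraries, so its test says little.

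Without descending control replicate 3, 1 of the 7 genes passed, *Gsta4* at an interaction of -0.90 (SE 0.27, adjusted p = 0.0271 in edgeR's test), a more negative change in ascending than in descending fibroblasts. It was -0.57 (adjusted p = 0.0734 in the same test) when ascending TGFβ replicate 1, the library with 17 counts of *Gsta4*, was left out as well, an alternative chosen after seeing the data, and 0.013 when that library alone was left out. The background was then 6.07% positive and 7.4% negative calls. *Mgst1* had -0.22 and *Gstt1* -0.38, and they did not pass. The other tested values then lay between -0.053 for *Gstp1* and 0.33 for *Fmo1*.

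Of 20 other glutathione transferase genes, 13 were tested for TGFβ in ascending fibroblasts, and 1 passed as higher and 10 as lower. Of the 10, 2 reached the filter in the control libraries alone, and the median log2 fold change of -0.82 over the 13 includes them. For this and the following lists, the share of all genes that passed was 28.2% higher and 27.6% lower in ascending fibroblasts, 3.59% and 4.48% in descending fibroblasts, and 26.6% and 26.3% there without descending control replicate 3. A gene that reaches the filter in 1 group alone was let in by its level in that group, so such genes are counted apart here. They are named by their counts, with no test. *Gstm7* fell most clearly, from 8.67 to 2.12 normalized CPM on average (log2 fold change -2.03, SE 0.16, adjusted p = 8.65e-09 in edgeR's test). *Gstm5* fell by 0.73 and *Mgst3* by 0.82 on the log2 scale. *Gstcd*, whose product carries only a transferase-like domain, rose by 0.44. In descending fibroblasts 1 of 13 passed, *Gstm7* with -2.14 (adjusted p = 0.0155 in the same test). Without descending control replicate 3, 7 of 14 passed as lower, 1 of them through the control libraries alone, and among them were *Gstm7* with -2.25 and *Gstm5* with -0.71.

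Within the *Gstm* cluster, *Gstm1* and *Gstm7* thus had changes of about the same size. In ascending fibroblasts *Gstm6* and *Gstm2*, which lie between them, had -1.31 and -0.44, and *Gstm4*, which lies outside them, had -0.63. *Gstm6* and *Gstm4* were named after their values were seen. Between the sites under TGFβ, 1 of 13 other transferases was higher and 5 were lower in ascending fibroblasts, 1 of the 5 reaching the filter in descending libraries alone, against 18.1% and 18.2% of all genes. *Gstm6* was lower, at -1.83 (SE 0.24), and *Mgst3* had -1.08 (SE 0.10), while *Gstm7* was higher, with 0.86 (SE 0.27), a call lost without descending TGFβ replicate 1 (adjusted p = 0.0623 in edgeR's test). In control, none of 14 passed in the full fit, with 2 at an unadjusted p under 0.05, 2 by DESeq2's Wald test and 5 by limma's voom. Without descending control replicate 3, 2 of 15 were higher and 4 lower in ascending control, 1 of the 4 reaching the filter in descending libraries alone, against 16.4% and 15.2% of all genes.

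Among 3 other flavin monooxygenase genes, none passed the filter for TGFβ with all libraries. *Fmo4*, the neighbour of *Fmo1*, had 30, 33 and 0 counts in descending control and 1, 2 and 0 in descending TGFβ, the control library at 0 being replicate 3. Without that library it passed the filter in descending fibroblasts, through the remaining controls alone, so its fitted log2 fold change of -4.52 is given without a test and is no bound. In ascending libraries it had 4, 11 and 15 counts in control and 0, 0 and 4 with TGFβ. *Fmo6* and *Fmo9* stayed at or below 0.0249 normalized CPM per kb in every library.

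**Figure D4:**
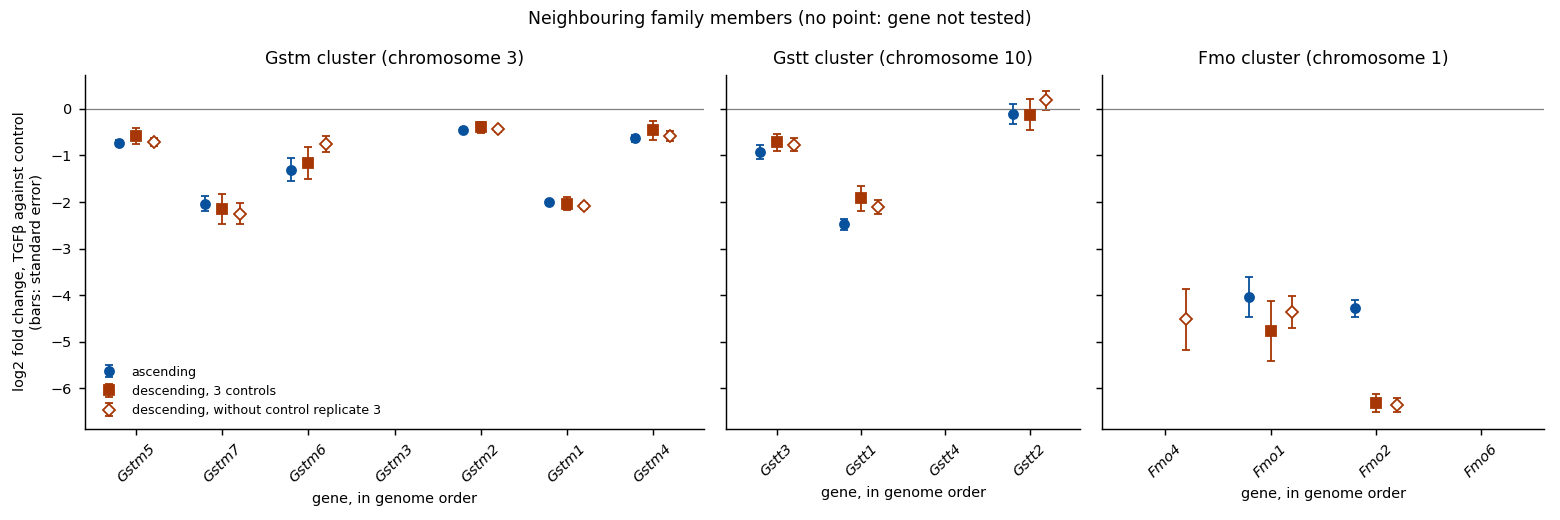
Log2 fold change, TGFβ against control, with SEs, of genes of the *Gstm*, *Gstt* and *Fmo* clusters in genome order, in ascending fibroblasts (circles), descending fibroblasts (squares) and descending fibroblasts without control replicate 3 (open diamonds). *Gstm1* and *Gstm7* lie between -2.25 and -2.00, their neighbours between -1.31 and -0.40, *Fmo1* and *Fmo2* at or below -4.04.

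Glutathione itself is made by glutamate-cysteine ligase from cysteine that SLC7A11 imports as cystine. Of 14 tested genes of glutathione supply and turnover, 4 passed as higher and 5 as lower with TGFβ in ascending fibroblasts. *Chac1*, which degrades glutathione, rose by 0.99, *Gclc*, the catalytic subunit of the ligase, by 0.49 and *Gsr*, glutathione reductase, by 0.37 on the log2 scale. *Oplah* fell by 1.42 and *Glrx*, a glutaredoxin, by 1.20. *Ggt5*, the 1 of the 5 that reached the filter in control alone, had 16, 31 and 19 counts in ascending control and 5, 4 and 7 with TGFβ. In descending fibroblasts *Slc7a11* rose by 1.18 (adjusted p = 0.0100 in edgeR's test) and *Glrx* fell by 1.34, against 1.23 and 1.48 without descending control replicate 3, where again 4 passed as higher and 5 as lower, *Ggt5* being 1 of the 5.

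Among 7 tested export genes, 2 rose and 5 fell in ascending fibroblasts. *Abcg2* rose by 0.70 and *Abcc1*, a transporter of glutathione conjugates, by 0.43, while *Abcc5* fell by 0.95, *Abcb1a* by 0.71 and *Abcc3* by 1.29. In descending fibroblasts 1 passed, *Abcc5*, which fell by 0.61 (0.69 without descending control replicate 3), and 1 rose and 2 fell without descending control replicate 3.

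Of 20 genes of the NRF2 pathway, 6 rose and 7 fell in ascending fibroblasts, against 28.2% and 27.6% of all genes, with a median of 0.00053. *Txnrd1*, thioredoxin reductase, rose by 0.78, *Mafk*, a small MAF partner of NRF2, by 0.47 and *Sqstm1* by 0.38. *G6pdx*, which supplies NADPH, fell by 0.64, *Fth1*, the ferritin heavy chain, by 0.58 and *Pgd* by 0.29. In descending fibroblasts 3 rose and 1 fell, and 9 rose and 5 fell without descending control replicate 3. *Nqo1*, a quinone reductase and standard NRF2 target, rose in descending fibroblasts by 1.10 (SE 0.15, adjusted p = 0.0106 in edgeR's test), from 33.8 to 42.5 normalized CPM in control to 76.4 to 92.9 with TGFβ, and by 1.03 without descending control replicate 3. In ascending fibroblasts *Nqo1* rose by 0.15, a call lost when any of 4 libraries (control replicate 2 or 3, TGFβ replicate 1 or 2) was left out. For the interaction, 0 of 20 genes passed as positive and 1 as negative, and 2 and 5 without descending control replicate 3. The shares of all genes were 0.321% and 0.485%, and 6.07% and 7.4% without that library. The 1 call with all libraries was *Nqo1*, at -0.96 (SE 0.15, adjusted p = 0.0182 in the same test) and -0.88 without that library. The interaction call was lost, at adjusted p of up to 0.0778, when descending TGFβ replicate 1 or 2 or any 1 ascending library was left out, while the value stayed between -1.04 and -0.87.

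Of 23 tested enzymes of oxidation and reduction, 4 passed as higher and 19 as lower in ascending fibroblasts. Of the 19, 3 reached the filter in control alone, and the median of -0.62 over the 23 includes them. *Ephx1*, microsomal epoxide hydrolase, fell by 0.98, *Maoa*, monoamine oxidase A, by 1.11 and *Cyb5r3* by 0.52, while *Akr1b8* rose by 0.35, *Ephx2* by 0.57 and *Por*, the reductase of cytochromes P450, by 0.23. In descending fibroblasts 0 of 22 passed as higher and 5 as lower in edgeR's test, where 14 had an unadjusted p under 0.05 and 13 passed by DESeq2's Wald test and 19 by limma's voom. *Maob* fell by 1.71 and *Nqo2* by 1.37, against 1.42 and 1.12 without descending control replicate 3. *Adh1*, alcohol dehydrogenase, was the 1 of the 5 that reached the filter in control alone, with 139, 146 and 149 counts in descending control and 11, 13 and 10 with TGFβ. Without descending control replicate 3, 4 of 24 passed as higher and 17 as lower, 2 of the 17 through the control libraries alone. For the interaction, 0 of 23 genes passed as positive and 1 as negative, and 0 and 7 of 24 without descending control replicate 3. The shares of all genes were 0.321% and 0.485%, and 6.07% and 7.4% without that library. The 1 call with all libraries was *Maoa*, at -0.71 (SE 0.13, adjusted p = 0.0339 in edgeR's test) and -0.61 without that library. This call held without descending control replicate 1 or 3 and was lost when any 1 other library was left out, at adjusted p of up to 0.135, with values between -0.77 and -0.61.

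Of 7 tested genes of sulfation, glucuronidation, methylation and acetylation, 1 passed as higher and 5 as lower in ascending fibroblasts, but 3 of the 5 (*Sult1a1*, *Ugt1a6a* and *Ugt1a6b*) reached the filter in control alone. *Ugdh*, which makes UDP-glucuronic acid, fell by 0.79, and *Nnmt*, a methyltransferase of nicotinamide, rose by 0.48. *Sult1a1*, a sulfotransferase, had 100, 88 and 79 counts in ascending control and 3, 19 and 18 with TGFβ, and *Ugt1a6a* 11, 21 and 20 against 1, 0 and 0. *Ugdh* was the 1 call in descending fibroblasts, where it fell by 0.85 (0.75 without descending control replicate 3). Without that library 1 passed as higher and 5 as lower, 2 of the 5 through the control libraries alone. The summed endothelial markers, nearly all *Tek*, were lower with TGFβ in each site without overlap, as were the adipocyte, macrophage and Schwann cell markers, and the smooth muscle markers were higher. Their part in the changes of these lists was not tested.

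The calls named for these pathway genes in descending fibroblasts with all libraries held without control replicate 3, but each was lost when some other library was left out. Those of *Gstm7*, *Glrx*, *Abcc5* and *Ugdh* were lost when any 1 of the other 5 libraries was left out, and those of *Slc7a11*, *Nqo1*, *Maob* and *Nqo2* when control replicate 2 or any 1 TGFβ library was. The highest adjusted p lay between 0.0776 for *Nqo1* and 0.263 for *Abcc5* in edgeR's test, and no direction changed.

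The genes whose levels followed those of *Gstm1* most closely over the 12 libraries were *Prkar1a*, *Adm* and *Rras2*, with Pearson's r of log2 CPM of 0.997, 0.995 and 0.995. For *Gsto1* they were *Ssr1*, *Slc25a25* and *Klc2*, with 0.994, 0.994 and 0.993. For *Fmo2* they were *Angpt2*, *Tgfbr3* and *Selenop*, with 0.993, 0.992 and 0.988. These values of r lay between 0.987 and 0.997 without descending control replicate 3. *Angpt2* had the same order of groups as *Fmo2*, at 67.5 to 94.2 normalized CPM in descending control, 19.8 to 28.8 in ascending control and 1.19 to 1.99 with TGFβ. The points share 4 groups and the scaling of each library, so that r mainly reflects the 4 group levels and carries no p.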

How the data were processed

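RNA of 12 cultures was measured by bulk RNA-seq. The authors deposited raw read counts per gene symbol, without normalization, made with STAR and featureCounts on mm10 per the labels. Versions, the strand setting and the treatment of reads matching several genes are not given in the sources used here. Labels, methods and results of the study differ on the age of the mice and the number of passages, and the values of the labels were used. The methods name male mice.

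Groups follow the labelled site and treatment. Counts were tested with edgeR 4.0.16 (R 4.3.3) by the two-sided quasi-likelihood F-test on the libraries compared, or on all 12 for the interaction. TMM scaling, filterByExpr (minimum count 10, minimum total 15) and Benjamini-Hochberg adjustment over all genes tested were used, with a call at an adjusted p under 0.05. The standard error was the log2 fold change divided by the square root of F. Alternatives were DESeq2 1.42.0 (size factors, Wald test), limma 3.58.1 (voom with sample quality weights), other filters, the replicate number as a block, one fit of all 12 libraries, and leaving out each library in turn. Fits were tested on simulated counts that held no library like descending control replicate 3, so that test does not cover fits that use it.

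Members and gene lists were chosen with earlier results of these data known. Some genes of these lists are not reported here and were left out of the counts. All 10 members are named, with up to 3 genes per direction and list with the smallest adjusted p among those called, and the 3 genes most alike by r of log2 CPM (prior count 2). Coordinates and exon lengths are of GENCODE vM21 (GRCm38). Intervals of ratios of summed counts are exact, at 95%, cover counting error only and are no test.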

Additional observations from a re-analysis of the deposited data

How the results depend on the processing

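Descending control replicate 3 limits what the descending control comparisons show, and it was kept in the reported fits. In ascending against descending control, 374 genes passed, against 1151 with DESeq2's Wald test, 4392 with voom, 0 with the replicate block, 1545 with the 12 libraries in one fit and 33 to 4631 with each library left out. Here, for the interaction and for TGFβ in descending fibroblasts, the highest count came without descending control replicate 3, and leaving out any other library gave at most 108, 131 and 474. The 1 member called became 4, 6, 0 and 4 under the same settings and 0 to 7 with each library left out. Under TGFβ, the 12 libraries in one fit gave 1106 in place of 4963 genes and 1 in place of 3 members. The interaction passed in 118 genes, against 497 with DESeq2's Wald test, 1979 with voom, 56 without a filter, 50 with the replicate block and 25 to 2022 with each library left out. Its count of 0 members was 1 with voom and 0 to 1 with each library left out. TGFβ in ascending fibroblasts gave 7767 genes and 2338 with the 12 libraries in one fit. In descending fibroblasts it gave 1115, against 2531 with DESeq2's Wald test, 7335 with voom, 95 with the replicate block, 3570 with the 12 libraries in one fit and 213 to 7576 with each library left out. The cause was not tested.

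Some differences of the members changed sign. In control between the sites, voom turned *Gstm1* to -0.011, *Gstp1* to -0.14 and *Fmo5* to 0.028, and leaving out descending control replicate 3 turned them to -0.0071, -0.15 and 0.033. With each library left out, these differences ranged from -0.0071 to 0.074, from -0.15 to 0.36 and from -0.36 to 0.033. *Gstm2* under TGFβ ranged from -0.0044, without descending TGFβ replicate 3, to 0.098. For the interaction, *Gstm1* ranged from -0.036 to 0.11, below 0 without descending control replicate 2, descending TGFβ replicate 2 or 3 or ascending TGFβ replicate 3. *Gstm2* was 0.021 with voom and ranged from -0.11 to 0.0019, the highest without descending control replicate 3, and *Gsta4* ranged from -0.90 to 0.013, the highest without ascending TGFβ replicate 1. For TGFβ in descending fibroblasts, *Gstp1* was 0.048 with the replicate block and ranged from -0.34 to 0.17, above 0 without descending control replicate 1 or 2. Same-numbered libraries did not deviate together (0 of 18 pairs had r over 0.1, the highest 0.0878), and the reported fits did not pair them. Whether same-numbered cultures shared animals is not stated, and a low r cannot exclude it. With 12 to 24 counts of *Fmo2* and 1 to 8 of *Fmo1* in TGFβ libraries, depth limits what can be said of the sites under TGFβ for these genes.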

Other observations

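Several genes of the neighbouring pathways differed between the sites under TGFβ, where no descending control library enters. In ascending fibroblasts 5 of 20 genes of the NRF2 pathway were higher and 6 lower, and 5 of 21 of oxidation and reduction were higher and 5 lower. Of 7 export genes 3 were higher and 3 lower, and of 13 of glutathione supply 3 and 2, against 18.1% and 18.2% of all genes. With each library left out, these lists had 9 to 11, 6 to 9, 4 to 6 and 2 to 5 calls, in that order. Under TGFβ the summed adipocyte, smooth muscle and endothelial markers were higher in descending and the mesothelial, macrophage and Schwann cell markers in ascending libraries without overlap, and their part in these differences was not tested. In edgeR's quasi-likelihood test *Nqo1*, a quinone reductase, was lower in ascending fibroblasts, at -1.45 on the log2 scale (SE 0.06, adjusted p = 2.21e-17), while *Maff*, a small MAF protein, was higher by 0.81 and *Txnrd1*, thioredoxin reductase, by 0.38. Among enzymes of oxidation, *Aldh1a1*, a retinaldehyde dehydrogenase, was higher in ascending fibroblasts by 0.82 and *Maoa*, monoamine oxidase A, lower, with -0.71. *Abcb1b*, a multidrug transporter, was higher in ascending fibroblasts by 0.97 under TGFβ and by 0.86 in control (adjusted p = 0.0272 in edgeR's test), the 1 call among the tested genes of these lists between the sites in control with all libraries, where 1.19% of all genes passed as higher and 1.47% as lower. In control it was 0.80 without descending control replicate 3, and the call was lost when any 1 of the other 5 libraries was left out, at adjusted p of up to 0.219. Without descending control replicate 3, where 16.4% of all genes passed as higher and 15.2% as lower in ascending control, 13 of 24 genes of oxidation and reduction were higher and 4 lower, 1 of the 4 (*Aox3*, named after its value was seen) reaching the filter in descending libraries alone. Of 20 genes of the NRF2 pathway 6 were then higher and 7 lower, of 14 of glutathione supply 5 and 1, and of 7 export genes 2 and 2. *Oplah*, which acts in the breakdown of glutathione products, was higher in ascending fibroblasts by 0.86 under TGFβ.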
